A study of Homo sapiens with 4 samples.

Results

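The axon guidance ligands and receptors were examined in DU145 cells after knockdown of DCUN1D1: ephrins and Eph receptors, semaphorins with their plexins and neuropilins, netrins with DCC, NEO1 and the UNC5 receptors, and slits with the robo receptors. Members were chosen by gene symbol alone, as every probe set (short probes that together read one transcript) that the platform annotation gives to exactly 1 gene of these families. This gave 174 probe sets of 69 genes, out of 40914 probe sets of 19774 genes. DU145 is an established line of androgen-independent human prostate carcinoma cells. The compared RNAs came from 2 cultures of DU145 cells stably transduced with lentiviral shRNA against DCUN1D1 (shDCUN1D1) and 2 with shRNA against GFP (shGFP), which is the control. Both groups thus carry a lentiviral shRNA, and both were grown in DMEM with 10% serum and harvested after 16 h, as the records state. The records call the 2 arrays of a group biological duplicates. The study's methods name different shRNAs against DCUN1D1 and a harvest some days after infection. No source says which sequence each shDCUN1D1 array carried, so the 2 arrays may hold different ones.

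Guidance cues steer growing axons and also act on the adhesion, shape and movement of epithelial, endothelial and tumour cells. Ephrins sit on the cell surface and bind Eph receptor tyrosine kinases on a neighbouring cell, so that a signal can run into both cells. Semaphorins signal through plexins, whose intracellular part acts on small GTPases. The secreted class 3 semaphorins mostly need a neuropilin beside the plexin. Netrins attract through DCC and repel through UNC5 receptors, and slits repel through robo receptors. DCUN1D1 promotes neddylation, the attachment of the ubiquitin-like protein NEDD8 to cullins.

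By the fold bound described below, 6 of the 174 guidance probe sets, of 5 genes, were lower in shDCUN1D1 cells and none was higher. This is 3.45% of the members, where 2.38% of all probe sets were lower. The 5 genes were EPHB4, PLXND1, ROBO4, SEMA3B and UNC5A. For EPHB4, PLXND1, ROBO4 and UNC5A the RefSeq table (GRCh38.p14) lists 1 transcription start each, and the 250 bases upstream of it are shown, as the promoters of the receptors whose signal was lower. That of EFNB2, the main transmembrane ligand of EPHB4, is shown for comparison. They read 5′ to 3′ on the gene's strand, and capitals mark the GC box GGGCGG on either strand (CCGCCC on the opposite one), with overlapping matches run together.

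EPHB4 (chr7:100827524-100827773, minus strand): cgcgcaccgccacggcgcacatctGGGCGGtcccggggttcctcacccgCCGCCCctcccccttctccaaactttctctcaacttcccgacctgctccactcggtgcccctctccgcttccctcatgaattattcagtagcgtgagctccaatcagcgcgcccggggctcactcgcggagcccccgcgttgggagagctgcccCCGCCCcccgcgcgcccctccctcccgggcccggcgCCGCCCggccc

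PLXND1 (chr3:129606677-129606926, minus strand): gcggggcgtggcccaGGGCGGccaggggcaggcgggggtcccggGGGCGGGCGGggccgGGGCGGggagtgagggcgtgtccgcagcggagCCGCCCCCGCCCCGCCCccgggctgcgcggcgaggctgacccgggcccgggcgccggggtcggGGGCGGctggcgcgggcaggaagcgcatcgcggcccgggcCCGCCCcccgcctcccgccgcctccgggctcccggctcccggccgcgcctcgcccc

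ROBO4 (chr11:124897866-124898115, minus strand): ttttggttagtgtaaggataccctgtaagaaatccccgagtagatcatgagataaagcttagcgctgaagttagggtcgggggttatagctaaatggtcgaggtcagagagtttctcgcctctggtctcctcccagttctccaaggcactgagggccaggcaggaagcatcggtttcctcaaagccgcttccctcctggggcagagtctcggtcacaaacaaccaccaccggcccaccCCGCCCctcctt

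UNC5A (chr5:176810309-176810558, plus strand): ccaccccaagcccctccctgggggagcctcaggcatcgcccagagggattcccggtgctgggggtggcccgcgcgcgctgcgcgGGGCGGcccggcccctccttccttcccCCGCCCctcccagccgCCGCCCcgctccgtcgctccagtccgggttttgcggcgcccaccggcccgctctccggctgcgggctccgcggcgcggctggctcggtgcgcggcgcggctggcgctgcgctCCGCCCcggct

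EFNB2 (chr13:106535663-106535912, minus strand): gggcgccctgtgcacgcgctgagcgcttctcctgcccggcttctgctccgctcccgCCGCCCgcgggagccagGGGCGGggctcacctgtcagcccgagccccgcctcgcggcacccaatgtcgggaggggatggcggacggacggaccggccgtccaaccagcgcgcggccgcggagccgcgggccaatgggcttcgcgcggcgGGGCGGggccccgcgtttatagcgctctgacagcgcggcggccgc

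The GC box occurs 4 times upstream of EPHB4, 9 times upstream of PLXND1, 1 time upstream of ROBO4, 4 times upstream of UNC5A and 3 times upstream of EFNB2, whose groups overlapped. EFNB2 alone of these windows holds a TATAAA. The GC content was 72.8% for EPHB4, 88.8% for PLXND1, 54.8% for ROBO4, 81.2% for UNC5A and 78.4% for EFNB2. Among 90 promoter windows of 59 member genes, 70.0% hold a GC box on at least 1 strand, against 42.6% of all 35116 windows of that length in the table, and their median GC content was 65.0% against 58.0%. TATAAA, searched on both strands, was in 3.3% of the members' windows and in 10.7% of all windows. These matches describe the letters only.

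Signal was low on these arrays, and the table carries no detection calls. One of the nonspecific controls on each array, probes with 20 G or C bases that match no human sequence, read 2.48 and 2.51 log2 in shDCUN1D1 replicates 1 and 2, and 2.97 and 3.30 in shGFP replicates 1 and 2. This control was taken as the background. The choice matters, since the controls rise with their G or C bases, to 3.39 and 3.63 in shDCUN1D1 cells and 4.08 and 4.29 in shGFP cells at 22 bases. The shDCUN1D1 background was itself the lower one: of 23 nonspecific probe sets, 20 had both shDCUN1D1 arrays below both shGFP arrays, with a median difference of −0.29. The control of 20 bases differed by −0.64. The arrays also differed in other ways that go with the groups or with 1 array. The hybridization spike bioB read 6.37 and 6.22 in the shDCUN1D1 arrays and 8.22 and 10.49 in the shGFP arrays. In shDCUN1D1 replicate 1, 2690 probe sets exceeded all other arrays by over 1 log2, compared with 151 in shDCUN1D1 replicate 2 and 27 and 365 in the shGFP arrays. The control probe set for the 3′ end of GAPDH read 10.82 and 5.095 in the shDCUN1D1 arrays and 5.02 and 4.68 in the shGFP arrays. Over the probe sets naming 1 gene, the correlation was 0.746 between the shDCUN1D1 arrays and 0.914 between the shGFP arrays. For the markers of cell identity, KRT8 was above background in all 4 arrays, while EPCAM, CDH1, KRT7 and KRT19 were above it in none and KRT18 in shDCUN1D1 replicate 1 only. No measured marker of endothelial (5 genes), neural (6) or leukocyte (4) cells was above background in any array, and of 5 fibroblast markers only COL1A1 was. Of 3 measured luminal prostate markers, TMPRSS2 was above it in 3 arrays, KLK3 in 1 and KLK2 in none. The part of these array differences in the results below was not tested.

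The targeted gene had less signal in the shDCUN1D1 arrays on its main probe set, at background level. DCUN1D1 on its probe set with the highest mean read 1.60 and 1.45 in shDCUN1D1 cells and 2.55 and 1.99 in shGFP cells, all under the background of their arrays. The log2 fold change was −0.75 (SE 0.26, limma adjusted p = 0.625), not past the fold bound, and −0.47 without shGFP replicate 1. Of the 6 DCUN1D1 probe sets, 4 were negative and 2 positive (0.12 and 0.07), and their mean had −0.22.

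By the control of 20 bases, few guidance genes gave signal over background. Of the 174 probe sets, 13 were above it in all 4 arrays (7.47%, against 4.39% of all probe sets), 25 in some arrays and 136 in none (78.2%, against 76.1%). With the control of 16 bases 41 were above it in all 4 arrays (23.6%, against 17.4% of all). With that of 18 bases 17 were (9.77%, against 6.49%), and with that of 22 bases 3 were (1.72%, against 1.67%). These comparisons were added after seeing the data. With the control of 20 bases, 27 and 33 members were above background in shDCUN1D1 cells (15.5% and 19%, against 18.7% and 14.5% of all probe sets). In shGFP cells, where this control read higher, 21 and 18 were (12.1% and 10.3%, against 8.97% and 6.07% of all). The 13 above it in all arrays belong to 9 genes: EFNB2, EPHB4, PLXNA1, SEMA3F, SEMA4C, SEMA6B, SEMA6C, SEMA7A and UNC5B. No EphA receptor, ephrin-A, neuropilin, netrin, slit or robo probe set was among them.

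Differences are given as log2 fold change, shDCUN1D1 minus shGFP, and were tested with limma over all 40914 probe sets. Limma's Benjamini–Hochberg adjusted p was under 0.05 for 0 of the 174 guidance probe sets and for 0 of all probe sets (0%), with a smallest value of 0.625. At an unadjusted p under 0.05 it gave 2 guidance probe sets higher and 13 lower, where 2.3% of all probe sets were higher and 5.25% lower. A second, looser criterion takes its 90% limit and its fold of 1.2 from the study's methods. A probe set is past the fold bound where the lower limit of the two-sided 90% confidence interval of its fold change, in either direction, is above 1.2. The interval came from limma and not from dChip, the program the methods name, and read as a one-sided limit it gave 1 guidance probe set higher and 8 lower. By it, 0 guidance probe sets were higher, where 1.18% of all probe sets were, and 6 were lower, or 3.45%, where 2.38% of all were. Over both directions 3.56% of all probe sets passed. The members' share is thus close to that of all probe sets. With 2 arrays a group, an exact permutation test of a single value cannot go below p = 0.333, so none was made. "Lower" and "higher" below mean past the fold bound unless values are given, and fewer transcripts per cell cannot be told apart from a change in the mix of cells.

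The guidance genes as a set lay slightly below 0. Their median log2 fold change was −0.13, where that of all probe sets was −0.01. Without shDCUN1D1 replicate 1 it was −0.04 and without shGFP replicate 1 it was −0.07. The members ranged from −2.14 (EPHB4) to 1.53 (SEMA3C). Of the 174, 112 were negative and 62 positive. Both shDCUN1D1 arrays lay below both shGFP arrays for 56 of them (32.2%, against 25% of all probe sets), and above both for 22 (12.6%, against 17.9%). The nonspecific controls differed in the same direction. Of the members, SEMA3C alone was over 1 log2 above all other arrays in shDCUN1D1 replicate 1, and 4 probe sets were so in shGFP replicate 2, those of SEMA6B, SEMA6D, PLXNA4 and NTN3. Of 98 receptor probe sets 5 were lower (5.10%) and of 76 ligand probe sets 1 (1.32%), where 2.38% of all were, with medians of −0.11 and −0.14. The difference between receptors and ligands was not tested.

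**Figure D1:**
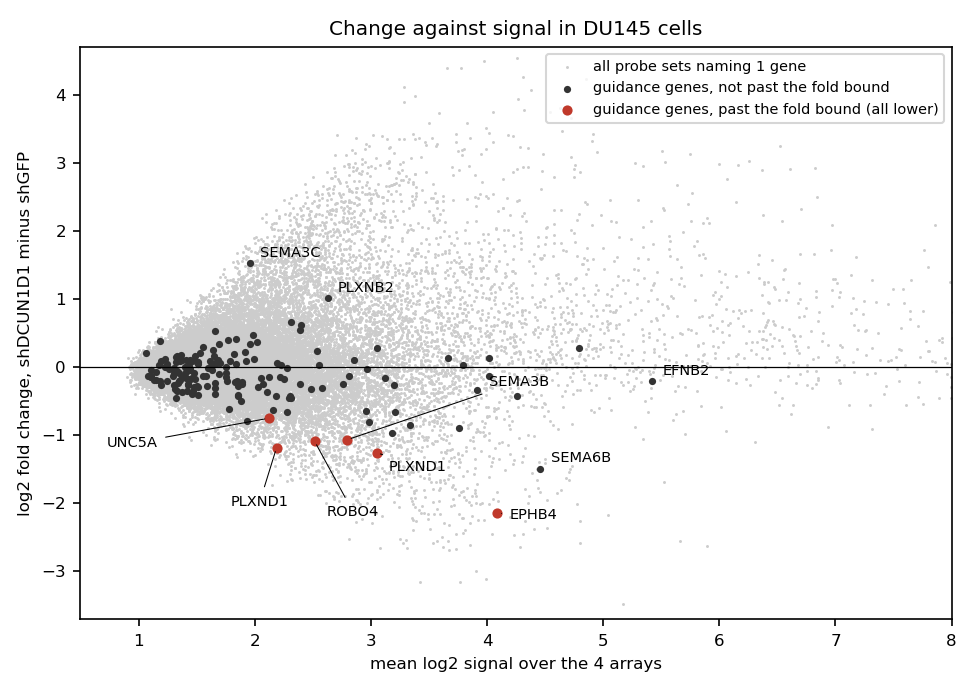
Log2 fold change, shDCUN1D1 minus shGFP (vertical axis), against mean log2 signal for all 40914 probe sets (grey; a few lie outside the axes), the guidance probe sets (black) and the 6 of them past the fold bound (red). All 6 are below 0, between −2.14 for EPHB4 and −0.75 for UNC5A, and EFNB2 lies at −0.21 at high signal, on the deposited scale.

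Among the Eph receptors the largest difference was in EPHB4, the receptor tyrosine kinase of ephrin-B2. One EPHB4 probe set, whose suffix marks probes shared by several transcripts, read 3.38 and 2.66 in shDCUN1D1 cells, against 4.79 and 5.53 in shGFP cells, so that the groups did not overlap. This is a log2 fold change of −2.14 (SE 0.59, limma adjusted p = 0.625), or 77.4% less signal. The lower limit of its fold was 1.95. The other EPHB4 probe set read 2.99 and 2.77 in shDCUN1D1 cells, against 3.28 and 3.79 in shGFP cells, a log2 fold change of −0.66 (SE 0.41) that was not past the bound. All 8 of these values lay above the background of their arrays, which itself differed by −0.64 between the groups. EPHB4 was also the only guidance gene lower when a gene's probe sets were averaged, with a log2 fold change of −1.40. Without shGFP replicate 2 the first probe set had −1.78 and was no longer past the bound.

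The other EphB receptors with a member probe set, EPHB1, EPHB3 and EPHB6, did not pass, and EPHB2 had no such probe set. EPHB3 read 2.02 and 2.17 in shDCUN1D1 cells, against 2.43 and 2.62 in shGFP cells (log2 fold change −0.43, SE 0.25), below background in each array, and its second probe set had 0.09. EPHB1 had −0.21 on its main probe set, with overlapping groups, and EPHB6, which lacks kinase activity, −0.27. Over the 8 EphB probe sets, 7 were negative, with a median of −0.31. For the EphA receptors, 0 of 26 probe sets of 9 genes passed in either direction. Their changes ran from −0.42 (EPHA10) to 0.47 (EPHA1), with a median of −0.11. EPHA4, which binds ephrins of both classes, read 3.21 and 2.92 in shDCUN1D1 cells and 2.91 and 3.76 in shGFP cells, and EPHA8 read 2.58 and 3.32 in shDCUN1D1 cells and 3.45 and 2.51 in shGFP cells. In both the groups overlapped. The log2 fold change of EPHA4 was −0.27, and −0.51 after quantile normalization. EPHA2, the EphA receptor best known in carcinoma cells, read 2.39 and 1.93 in shDCUN1D1 cells and 2.31 and 2.37 in shGFP cells, under background in every array.

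The ephrins showed no difference past the bound in 15 probe sets of 8 genes. EFNB2, which encodes the ephrin-B2 ligand of EPHB4, read 5.43 and 5.20 in shDCUN1D1 cells, against 5.88 and 5.17 in shGFP cells, above background in every array. Its groups overlapped, with a log2 fold change of −0.21 (SE 0.63). The value depends on the scaling, since after quantile normalization it was −0.97, not past the bound, and the ephrin-B median was −0.44 in place of −0.21. For its receptor, both EPHB4 probe sets separated the groups, the second by about as much as the background control (−0.66 and −0.64). The difference between the 2 genes was not tested. EFNB3 gave opposite results on its probe sets. One, whose suffix marks probes that may bind other transcripts, read 2.42 and 2.76 in shDCUN1D1 cells, against 3.13 and 3.65 in shGFP cells, a log2 fold change of −0.80 (SE 0.39). The other read 2.48 and 2.92 in shDCUN1D1 cells, against 2.38 and 1.80 in shGFP cells, or 0.61 (SE 0.34), and their mean had −0.10. EFNB1 had −0.42, at a signal under background. Among ephrin-A ligands, EFNA3 read 3.51 and 4.12 in shDCUN1D1 cells and 4.30 and 3.25 in shGFP cells (0.04, and −0.24 after quantile normalization), EFNA1 had −0.25 and EFNA5 0.12. The median of the ephrin-A probe sets was 0.02, and −0.08 after quantile normalization.

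**Figure D2:**
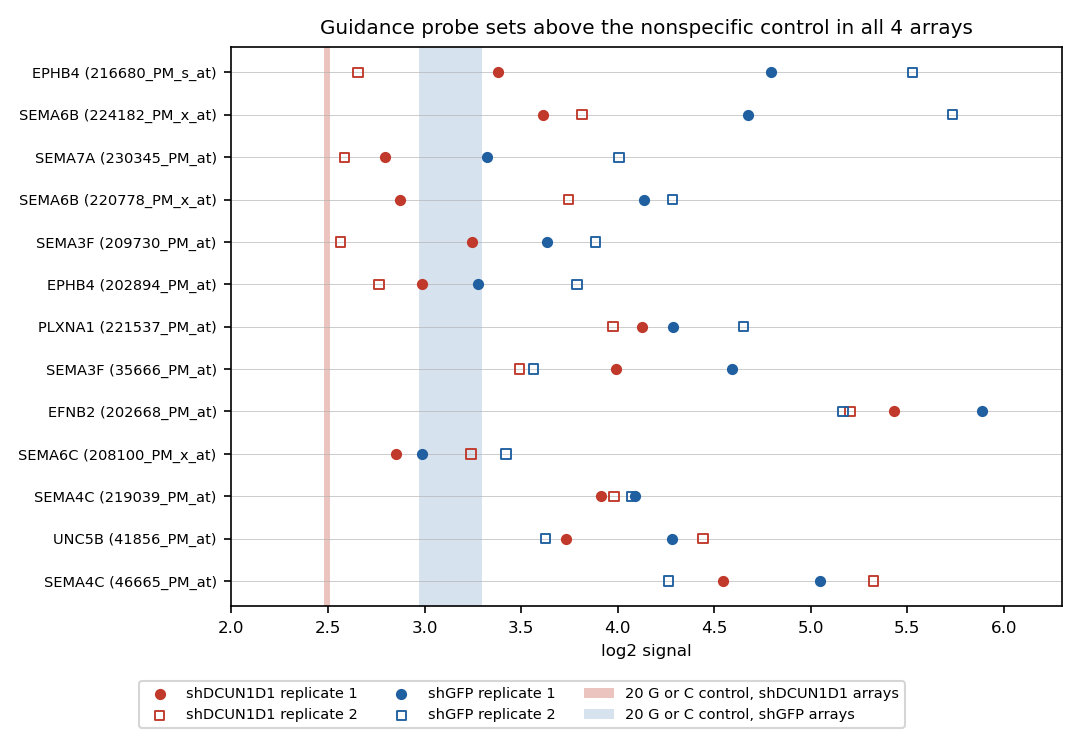
Log2 signal (horizontal axis) of the 13 guidance probe sets above background (the nonspecific control) in all 4 arrays, one row each, ordered by log2 fold change, with symbols and bands as in the plot of all 69 genes. Both shDCUN1D1 arrays lie to the left of both shGFP arrays in 8 of the 13 rows, and EPHB4 (top) has 3.38 and 2.66 in shDCUN1D1 cells against 4.79 and 5.53 in shGFP cells.

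Among the 13 probe sets with signal over background in all arrays, 11 had a negative log2 fold change, as had 926 of all 1798 such probe sets. Both shDCUN1D1 arrays lay below both shGFP arrays in 8 of the 13 (61.5%, against 31.7% of all such probe sets). None had both above. Their median was −0.42, where that of all such probe sets was −0.02. The 11 became 13 after quantile normalization and stayed 11 after median centring. One of the 13, that of EPHB4, was past the fold bound (7.69%, against 5.84% lower among all such probe sets). The background was 2.48 and 2.51 in the shDCUN1D1 arrays and 2.97 and 3.30 in the shGFP arrays. This filter thus admits lower values in shDCUN1D1 than in shGFP cells, and cannot serve as a separate sign of lower signal.

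Of the secreted class 3 semaphorins, 1 of 14 probe sets was lower. SEMA3B, known as a candidate tumour suppressor lost in lung cancer, read 2.47 and 2.06 in shDCUN1D1 cells, against 3.18 and 3.48 in shGFP cells. This is a log2 fold change of −1.07 (SE 0.35, limma adjusted p = 0.625), or 52.3% less signal. The shGFP values were above background and the shDCUN1D1 values under it. SEMA3B passed the bound without shDCUN1D1 replicate 1 but not without any of the other 3 arrays, with log2 fold changes between −1.27 and −0.86. The second SEMA3B probe set had −0.22, with overlapping groups, under background in all arrays. SEMA3F, which binds neuropilin-2, read 3.25 and 2.57 in shDCUN1D1 cells, against 3.63 and 3.89 in shGFP cells, on one probe set (log2 fold change −0.85, SE 0.45). On the second it read 3.99 and 3.49 in shDCUN1D1 cells, against 4.59 and 3.56 in shGFP cells (−0.34, SE 0.59). The third had −0.18, under background in every array, and none passed the bound. After quantile normalization the second had −0.74. SEMA3C, a secreted semaphorin studied in prostate carcinoma growth, had the largest positive value of all members, 1.53 (SE 1.03), which came from a single array. It read 4.33 and 1.11 in shDCUN1D1 cells, against 1.18 and 1.204 in shGFP cells. Without shDCUN1D1 replicate 1 its log2 fold change was −0.08, and without replicate 2 it was 3.13 (limma adjusted p = 0.00265), where limma called 2602 probe sets in all. SEMA3E and SEMA3D had both shDCUN1D1 arrays below both shGFP arrays, at values of 1.71 or less. The class median was −0.20.

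None of 32 probe sets of the membrane-bound semaphorins of classes 4 to 7 passed the bound. SEMA6B, a transmembrane ligand of class A plexins, came nearest. It read 3.61 and 3.81 in shDCUN1D1 cells, against 4.68 and 5.73 in shGFP cells, on one probe set, a log2 fold change of −1.49 (SE 0.63), and −0.96 without shGFP replicate 2. All 3 SEMA6B probe sets had both shDCUN1D1 arrays below both shGFP arrays, the other 2 at −0.90 and −0.61. After quantile normalization the first had −2.08 and was past the bound. Both SEMA6B probe sets with signal over background carry the suffix of probes that may bind other transcripts. SEMA7A, the semaphorin anchored by a lipid, read 2.80 and 2.59 in shDCUN1D1 cells, against 3.32 and 4.01 in shGFP cells, a log2 fold change of −0.97 (SE 0.43), with −0.31 on its second probe set. SEMA4C, a ligand of plexin-B2, did not separate the groups on one probe set (4.54 and 5.33 in shDCUN1D1 cells, 5.05 and 4.26 in shGFP cells). On the other it read 3.92 and 3.98 in shDCUN1D1 cells and 4.09 and 4.07 in shGFP cells. The fold changes were 0.28 (SE 0.66) and −0.13 (SE 0.48) on the log2 scale, and the first turned to −0.33 after quantile normalization. SEMA4B and SEMA6D each had a probe set with both shDCUN1D1 arrays above both shGFP arrays, at 0.53 and 0.54, of which only SEMA6D reached background, in 1 array. The other SEMA6D probe sets lay under background and went apart. One was above both shGFP arrays (0.18), others were below both (−0.64 and −0.28), and the last overlapped (−0.05).

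Of the receptors of semaphorins, PLXND1 was lower and no neuropilin passed the bound. PLXND1, the plexin that binds SEMA3E in vessels, had 2 of its 3 probe sets lower. The first read 2.14 and 2.71 in shDCUN1D1 cells, against 3.33 and 4.02 in shGFP cells, a log2 fold change of −1.25 (SE 0.45, limma adjusted p = 0.625), or 58.1% less signal. The second read 1.48 and 1.71 in shDCUN1D1 cells, against 2.34 and 3.22 in shGFP cells, or −1.18 (SE 0.36) and 55.9% less signal, and lay under background in every array. The third showed no separation, with 2.35 and 2.79 in shDCUN1D1 cells and 2.53 and 2.56 in shGFP cells. The mean over the 3 had −0.80 and did not pass. Neither lower probe set passed without shDCUN1D1 replicate 1 or without shGFP replicate 2. PLXNB2, a receptor of SEMA4C, was the member nearest to the bound on the higher side. It read 2.92 and 3.35 in shDCUN1D1 cells, against 2.45 and 1.79 in shGFP cells, a log2 fold change of 1.02 (SE 0.38). It was above background in both shDCUN1D1 arrays and in no shGFP array. Median centring took it past the bound, and its second probe set had −0.16. PLXNA1, a co-receptor of class 3 semaphorins, read 4.12 and 3.98 in shDCUN1D1 cells and 4.29 and 4.65 in shGFP cells (−0.42, SE 0.52), and −0.95 after quantile normalization. PLXNA4 read 1.47 and 1.60 in shDCUN1D1 cells, against 1.69 and 2.96 in shGFP cells (−0.79, SE 0.44), and without shGFP replicate 2 the value was −0.16. NRP2, the neuropilin of SEMA3F, read 3.48 and 3.99 in shDCUN1D1 cells and 4.19 and 3.01 in shGFP cells, with overlap. Its log2 fold change was 0.13, and −0.10 after quantile normalization, and its 11 probe sets had a median of −0.03. NRP1 lay under background on each of its 4 probe sets.

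**Figure D3:**
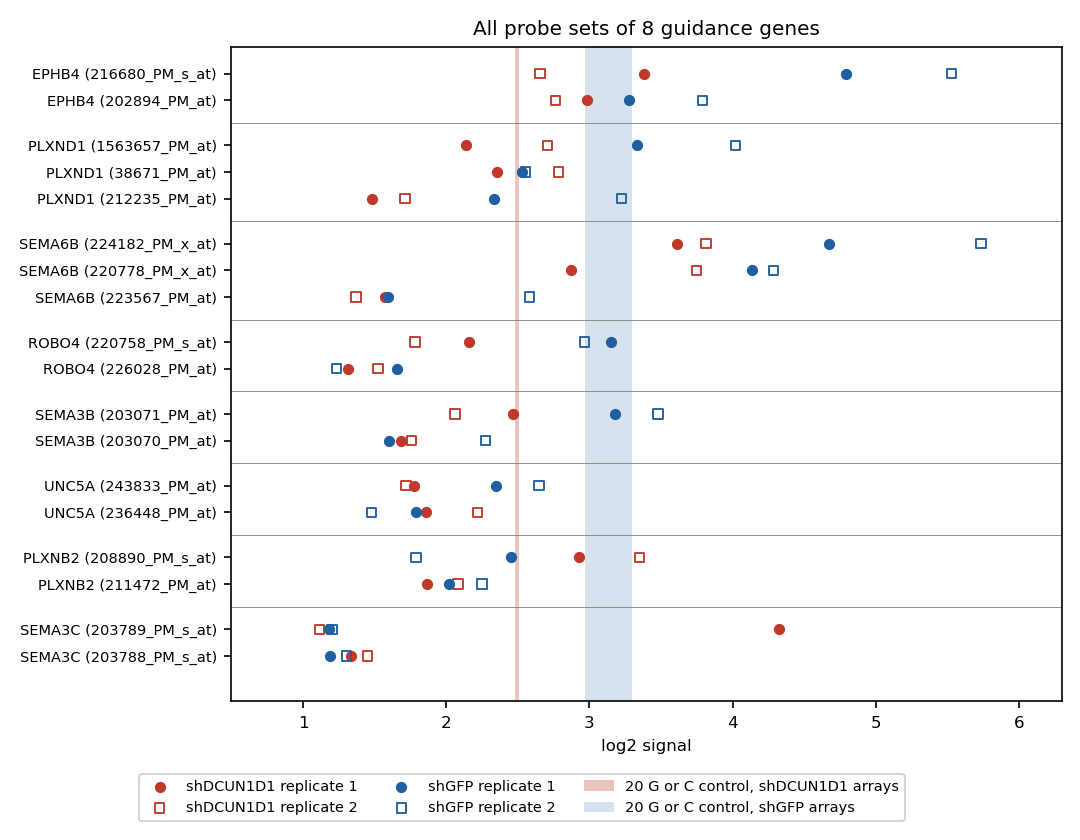
Log2 signal (horizontal axis) on every probe set of EPHB4, PLXND1, SEMA6B, ROBO4, SEMA3B, UNC5A, PLXNB2 and SEMA3C, with symbols and bands as in the plot of all 69 genes. The groups are separated on both EPHB4 and all 3 SEMA6B probe sets but on only 1 of the 2 probe sets of ROBO4 and SEMA3B, and SEMA3C reads 4.33 in shDCUN1D1 replicate 1 and 1.11 to 1.204 in the other arrays.

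The netrins and their receptors were near background apart from UNC5B. UNC5A, a repulsive netrin receptor that can also trigger cell death when netrin is absent, had 1 of 2 probe sets lower. It read 1.77 and 1.72 in shDCUN1D1 cells, against 2.35 and 2.65 in shGFP cells, a log2 fold change of −0.75 (SE 0.23, limma adjusted p = 0.625), or 40.6% less signal, with all values under background. The second probe set went the opposite way, with 1.86 and 2.22 in shDCUN1D1 cells, against 1.79 and 1.48 in shGFP cells (0.41), and the mean of both had −0.17. When any of the 4 arrays was left out, UNC5A was not past the bound. UNC5B, its paralogue, read 3.73 and 4.44 in shDCUN1D1 cells, against 4.28 and 3.63 in shGFP cells, over background in all arrays, and the groups overlapped (0.14, SE 0.57). After quantile normalization UNC5B had −0.22. The attractive receptor DCC had 0.22, and −0.13 on each of its other probe sets. Its relative NEO1 had 0.40, and both genes lay under background. Among netrins, NTN3 read 2.48 and 2.79 in shDCUN1D1 cells and 2.71 and 3.85 in shGFP cells (−0.64, SE 0.50, and −0.07 without shGFP replicate 2) and NTN1 had −0.22. The NTN5 arrays overlapped between groups on both probe sets.

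Of the robo receptors, ROBO4 was lower and of the slits none. ROBO4, the robo of endothelial cells, read 2.16 and 1.78 in shDCUN1D1 cells, against 3.15 and 2.97 in shGFP cells. The log2 fold change was −1.09 (SE 0.30, limma adjusted p = 0.625), or 52.9% less signal, and only shGFP replicate 1 was above background. The endothelial markers PECAM1, CDH5, VWF, KDR and TEK were under background in every array, and none was past the fold bound. Their summed log2 signal was 8.30 and 8.11 in shDCUN1D1 cells and 8.91 and 8.84 in shGFP cells, and its part in the ROBO4 difference was not tested. TEK alone of them had a positive log2 fold change (0.12). The neural markers, also under background, summed to 10.31 and 11.19 in shDCUN1D1 cells and 11.59 and 11.70 in shGFP cells. The sum of the leukocyte markers overlapped between the groups. Without shDCUN1D1 replicate 2 or shGFP replicate 1, ROBO4 was not past the bound (−0.90 and −0.996). The second ROBO4 probe set had −0.03. ROBO3 read 1.87 and 2.03 in shDCUN1D1 cells, against 2.29 and 2.93 in shGFP cells (−0.66, SE 0.31), and ROBO1, a main receptor of the slits, read 2.22 and 2.04 in shDCUN1D1 cells, against 1.58 and 1.997 in shGFP cells (0.34, SE 0.24). Both lay under background. SLIT1 read 2.62 and 2.66 in shDCUN1D1 cells, against 2.34 and 1.63 in shGFP cells (0.66, SE 0.33). On its other probe sets SLIT1 had −0.36 and 0.37, with overlapping groups. SLIT2 overlapped between groups (0.24), and SLIT3 had −0.25. The 7 robo probe sets had a median of −0.26 and the 8 slit probe sets −0.05.

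Different probe sets of a guidance gene often went apart. Of the 52 member genes with several probe sets, 32 had probe sets of both signs (61.5%, against 60.8% of 10550 such genes in all). All were negative in 15 (28.8%, against 20.7%), among them EPHB4, SEMA3B, SEMA3F, SEMA6B, SEMA7A and ROBO4. All were positive in 5 (9.62%, against 18.4%), namely EPHA1, NEO1, SEMA3C, SEMA4G and SLIT2.

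Among the intracellular partners of these receptors, 1 probe set each of RND3, GSK3B and CDK5 was higher and 1 each of ROCK1 and FARP2 lower. Of a list of 85 effector and related guidance genes, 77 had probe sets, 244 in all, of which 3 were higher (1.23%, against 1.18% of all probe sets) and 2 lower (0.82%, against 2.38%). Their median log2 fold change was 0.03. With 1 probe set per gene, or with probe sets averaged by gene, no effector was lower, where 3.64% and 2.08% of all genes were. The effector counts changed when 1 array was left out. RND3, which loosens actin stress fibres, had 3.52 and 2.32 in shDCUN1D1 cells, against 1.24 and 1.62 in shGFP cells, or 1.49 on the log2 scale. GSK3B, a kinase downstream of semaphorins and of WNT, had 3.27 and 3.64 in shDCUN1D1 cells, against 2.63 and 1.44 in shGFP cells (1.42). Its other 4 probe sets had 0.68, 0.53, −0.06 and −0.15. CDK5, a kinase that phosphorylates collapsin response mediators, had 3.76 and 3.36 in shDCUN1D1 cells, against 2.78 and 2.01 in shGFP cells (1.17). These 3 were under background in both shGFP arrays, and RND3 was over it in shDCUN1D1 replicate 1 only. ROCK1, a kinase that contracts the actin cytoskeleton, had 2.08 and 1.60 in shDCUN1D1 cells, against 3.33 and 3.30 in shGFP cells (−1.47, or 63.9% less signal), and 0.35, −0.18 and −0.62 on its other probe sets. The lower ROCK1 probe set was over background in shGFP replicate 1 only. FARP2, an exchange factor bound by class A plexins, had −0.55, and −0.17 and −0.32 on its other probe sets, and lay under background in every array. Each of these 5 had a limma adjusted p of 0.625.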

How the data were processed

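RNA of DU145 cells was labelled from 1 µg of total RNA and hybridized to 4 single-channel Affymetrix arrays, 2 per group. The authors deposited log2 signal, 1 value per probe set and array. The study's methods name dChip with a smoothing spline, and per the submitters' processing notes the tool was Affymetrix Expression Console. Which made the table is unsettled, and dChip was not run.

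Of 54715 probe sets, 40914 name 1 gene in the platform annotation. Those naming several genes (864) or none (12835) and 102 controls were left out. All 174 member probe sets matched RefSeq by gene ID, with 0 symbols updated. Values were used as deposited, in limma 3.58.1 (R 4.3.3; lmFit, eBayes with a variance trend, Benjamini–Hochberg over 40914 probe sets), which was tested on simulated data. A probe set was past the fold bound where the lower limit of the 90% confidence interval of its fold change exceeded 1.2. Precision is limited by 2 arrays a group. The members and lists were chosen with earlier results of these data known. Named were DCUN1D1, members past the bound, the 3 genes of each class with the highest mean signal, the 12 largest differences with groups apart, and effectors past the bound. Most others complete a count or a pair, and EPHA2 was named because it is well known in carcinoma cells. Alternatives are listed in the closing section.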

Additional observations from a re-analysis of the deposited data

How the results depend on the processing

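The 6 lower guidance probe sets kept their direction in every alternative that gave them a value, but not all stayed past the bound. The count of lower guidance probe sets was 7 after quantile normalization, the 6 and SEMA6B (4.02% of members, against 2.65% of all probe sets). It was 6 after median centring (3.45%, against 2.41%). Above the median mean signal it was 7 of 85 (8.24%, against 4.26%). With the highest-mean probe set per gene it was 6 of 69 (8.7%, against 3.64%). Without a variance trend it was 8, with SEMA6B and SEMA7A added (4.6%, against 3.33%). With robust variance it was 6, with SEMA6B in place of UNC5A (3.45%, against 2.48%). It was 1 (EPHB4, 2.08% of all genes) with a gene's probe sets averaged, and 37 by a plain fold of 1.2 with groups apart (21.3%, against 15.5% of all). With 1 array left out, not all of the 6 stayed past the bound. Without shGFP replicate 2, only ROBO4 of the 6 did. Without each other array 3 of the 6 stayed: EPHB4, ROBO4 and SEMA3B without shDCUN1D1 replicate 1, and EPHB4 and both PLXND1 probe sets without shDCUN1D1 replicate 2 or shGFP replicate 1, where 2 and 4 other probe sets passed. In the main fit, of all 4 arrays as deposited, no guidance probe set was higher. The count was 1, PLXNB2, after median centring, with the highest-mean probe set per gene, without a variance trend and with robust variance. In these settings 1.14%, 1.57%, 1.43% and 1.24% of all were higher. By plain fold it was 11 (6.32%, against 12.3% of all). Which guidance probe sets were higher changed with the array left out. Limma called 0 to 1 guidance probe sets with 1 array left out, SEMA3C without shDCUN1D1 replicate 2. The methods' t-test, at an unadjusted p under 0.05, gave 1 higher and 9 lower, where it gave 794 (1.94%) and 2134 (5.22%) of all, and 0 after Benjamini–Hochberg adjustment.

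Lower effector probe sets numbered 1 above the median mean signal, 0 with 1 probe set or the mean of probe sets per gene, and 35 by plain fold. Higher ones numbered 31 by plain fold. With 1 array left out, 1 to 24 were higher and 2 to 5 lower. The causes were not tested. Over all probe sets, 4008 were higher past the bound without shDCUN1D1 replicate 2, 1203 without shDCUN1D1 replicate 1 and 47 without shGFP replicate 2, against 481 in all 4 arrays. With 1 array left out, the members' median log2 fold change lay between −0.17 and −0.04. DCUN1D1 lay between −1.02 and −0.47, and the mean of its probe sets had −0.22.

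Members not past the bound could change sign. After quantile normalization SEMA4C had −0.33, EFNA3 −0.24, UNC5B −0.22 and NRP2 −0.10, each positive as deposited. With 1 array left out the log2 fold change ran from −0.85 to 0.18 for SEMA3F, −0.079 to 3.13 for SEMA3C, −0.11 to 0.67 for SEMA4C, −0.70 to 0.16 for EPHA4, −0.50 to 0.44 for EPHA8, −0.46 to 0.036 for EPHB1, −0.49 to 0.56 for EFNA3, −0.29 to 0.53 for EFNA5, −0.57 to 0.15 for EFNB2, −0.22 to 0.49 for UNC5B, −0.023 to 0.47 for DCC, −0.46 to 0.73 for NRP2, −0.034 to 0.21 for NRP1 and −0.21 to 0.69 for SLIT2.

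Same-numbered arrays did not deviate together (correlation −0.04). The outlying shDCUN1D1 replicate 1 enters this value, so it cannot settle whether the numbers pair the arrays. With the replicate block 4 guidance probe sets were lower (EPHB4, PLXND1 and ROBO4), or 2.3%, where 1.64% of all were. Guidance probe sets that were higher numbered 0, where 1.23% of all were, and of effectors 1 was higher and 1 lower. Some alternatives were chosen after seeing the data. A one-sided 90% bound gave 1 guidance probe set higher, where 3.74% of all were, and 8 lower (4.6%, against 4.24% of all). It gave 8 effectors in each direction. A filter kept the 27 members above the control of 20 G or C bases in at least 2 arrays. Of these 1 was higher, where 6.47% of the 4946 probe sets kept were, and 4 were lower (14.8%, against 9.16%). After this filter 0 effectors were lower. The controls of other G or C content taken as background were also chosen then. With signal this close to background, folds near the control are poorly measured.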
